A study of Mus musculus with 26 samples.

Results

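Among the cell lines of this collection that came from skin carcinomas of Spretus-cross mice, 3 held almost no transcript of Cdh1, the gene of E-cadherin, and 3 held it near the level of keratinocyte lines. The 6 lines were chosen out of 26 mouse skin cell lines. They are all those whose description names a Spretus cross and whose value on the Cdh1 probe set was under 5 (MSC12, MSC11B and MSC7A, called Cdh1-low here) or was 8 or more (MSCP5, MSCb1 and SN161, called Cdh1-high). The seventh Spretus-cross line, MSCP1, has high Cdh1 and is shown beside the others. Its array and that of the line PDV are the second closest of all pairs. All values are log2 expression values, so a difference of 1 is 2-fold. They come from 1 Affymetrix M430 array per line, normalised together by the authors with RMA, and ran from 2.28 to 14.92, with array medians of 5.04 to 5.15. A value near or below the array median is close to background.

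The Cdh1-low lines MSC12, MSC11B and MSC7A came from squamous carcinomas of Spretus/CBA mice and are labelled as lacking spindle pathology. The Cdh1-high lines MSCP5 and MSCb1 came from Spretus/CBA mice too, while SN161 came from a Spretus/NIH mouse, so the 6 lines do not share 1 cross. MSCP5 and SN161 are labelled as lacking spindle pathology, and for MSCb1 this is not stated. Lines with no stated cross serve as comparison: 7 carcinoma lines with spindle pathology (A5, H11, D3, D3DP, CarB, CarC and MSN2) and 6 carcinoma lines without it (PDV, B9ras, B9rassmad, PDVC57, E4 and B9). All were grown in serum and taken in log phase, with no treatment named, and the labels give no alleles for these lines. Each line is 1 sample with 1 array. The spread between lines is the error of every value below, and the labels show no repeat culture of a line.

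E-cadherin is the adhesion protein of the adherens junction, where it binds its like on the neighbouring cell and holds the actin cytoskeleton through catenins. In epithelial-mesenchymal transition (EMT), epithelial cells lose E-cadherin, desmosomes and keratins and take up mesenchymal cadherins, matrix proteins and contractile proteins, and transcription factors of the Snail, Zeb and Twist families repress the Cdh1 gene. In chemically induced mouse skin cancer, squamous carcinomas can progress to spindle cell carcinomas, which have made this change.

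The lines were chosen by their Cdh1 values, which are given as a description. Cdh1 was at 3.25, 3.25 and 3.54 in the Cdh1-low lines MSC12, MSC11B and MSC7A, against 11, 10.02 and 11.31 in the Cdh1-high lines MSCP5, MSCb1 and SN161. The highest value under the lower limit was thus 3.54 in MSC7A, the lowest above the upper limit was 10.02 in MSCb1, and no Spretus-cross line lay between. MSCP1 was at 11.62. The difference was -7.43 (SE 0.37), or 173-fold, and the Cdh1-low lines lay below the array median, as the 7 spindle lines did (3.02 to 3.78). The immortalised keratinocyte lines C5N and NK were at 11.55 and 11.60. Cdh1 was read by 1 probe set, so no second probe set checks it. In the text below, the lines stand in this order throughout, MSC12, MSC11B and MSC7A and then MSCP5, MSCb1 and SN161.

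**Figure D1:**
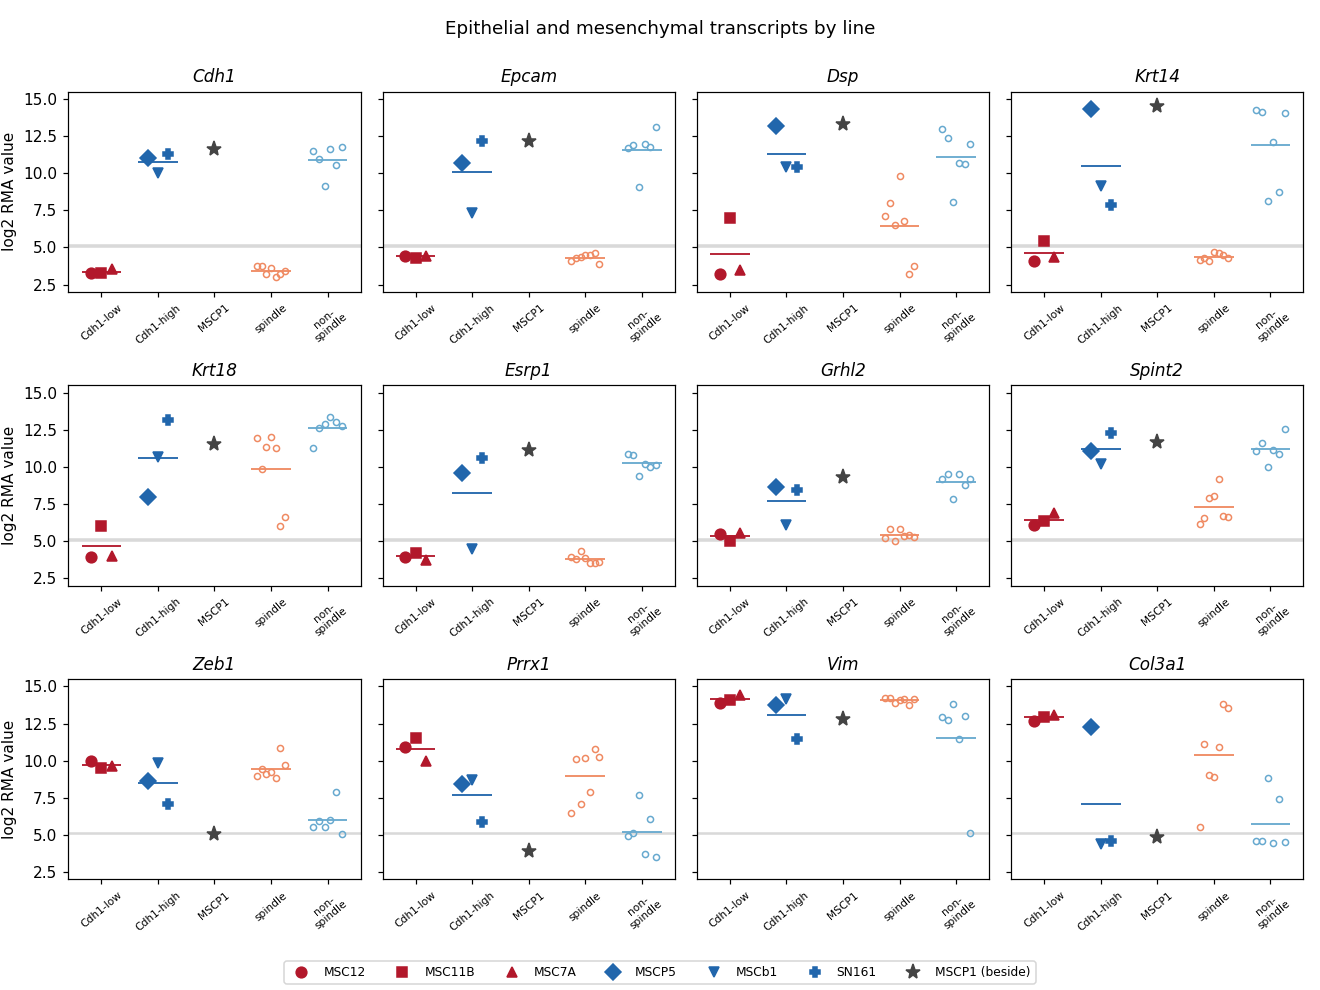
Log2 RMA value (vertical axis) of 12 transcripts in each Cdh1-low line, each Cdh1-high line, MSCP1, the 7 spindle lines and the 6 non-spindle lines with no stated cross. Each point is 1 line, horizontal bars are group means and the grey band is the range of array medians (5.04 to 5.15). Cdh1 and Epcam lie under 5 in every Cdh1-low and spindle line, whereas Zeb1 and Vim of the Cdh1-high line MSCb1 reach the Cdh1-low lines.

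The arrays show how alike the lines are. As a measure the root mean square (RMS) difference over all 45037 probe sets was used, whose median over the 325 pairs of arrays was 0.832. The 3 Cdh1-low lines lay 0.636 to 0.687 from each other, and the 3 Cdh1-high lines 0.836 to 0.891, so the Cdh1-high lines were no more alike than an average pair. MSC11B lay closer to the spindle lines MSN2 (0.440) and D3DP (0.465) than to any other Spretus-cross line. SN161 was nearest to E4 (0.541), MSCP5 to the papilloma line P6 (0.666) and MSCb1 to the spindle line D3DP (0.721). MSCP1 lay 0.317 from PDV, which was the second closest of all pairs after the spindle lines A5 and H11 (0.287).

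Of 12641 genes tested, 944 were lower in all 3 Cdh1-low lines than in any Cdh1-high line (7.47%), and 1161 were higher in all 3 (9.18%), which makes 16.7% in either direction. Shares of gene lists are read against these percentages. A limma fit over the 6 lines called 3 genes at an adjusted p under 0.05 (0.0237%), all lower in Cdh1-low lines, and 1232 had an unadjusted p under 0.05. Beside Cdh1 itself these were Urah, an enzyme of urate breakdown, at 5.96, 5.95 and 6.26 in Cdh1-low lines, against 10.41, 10.72 and 10.49 in Cdh1-high lines, and Arap2, a GTPase-activating protein. Arap2 was at 3.33, 4.10 and 3.96 in the Cdh1-low lines, against 9.23, 8.23 and 8.96 in the Cdh1-high lines. Since Cdh1 chose the lines, the fit is a description of them. The count was 78 without MSCb1, 12 without MSCP5, 9 without MSC11B and 0 without MSC12 or MSC7A, so it depends on which lines are compared.

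After Cdh1, the lower genes with the widest differences were Dsp (-6.76, SE 1.24), Krt18 (-5.96, SE 1.33), Perp (-5.93, SE 1.91), Krt14 (-5.84, SE 1.64), Cxcl3 (-5.68, SE 0.91), Epcam (-5.66, SE 1.17), Ripk4 (-5.58, SE 0.88), Plet1 (-5.47, SE 0.79) and Ppbp (-5.41, SE 0.98). Cxcl3 and Ppbp encode chemokines that attract neutrophils, and Ripk4 a kinase of keratinocyte differentiation. The higher genes were led by Col3a1 (5.83, SE 2.09), Cdh11 (5.5, SE 1.80), Col5a2 (5.19, SE 1.55), Gulp1 (4.48, SE 0.56) and En1 (4.35, SE 0.49). They were followed by Fgf7 (4.12, SE 0.71), Mmp2 (4.12, SE 1.04), Zfp521 (4.03, SE 1.12), Cpt1c (3.81, SE 0.42) and Nr2f1 (3.68, SE 0.64). Fgf7 encodes keratinocyte growth factor, which stromal cells make, and En1 and Nr2f1 encode developmental transcription factors. En1 was at 6.64, 7.53 and 8.24 in Cdh1-low lines, against 3.75, 2.75 and 2.87 in Cdh1-high lines. Second probe sets of some genes differed far less than the ones used here, with the same sign for the genes given next. Among genes lower in Cdh1-low lines these were Epcam (-0.26), Plet1 (-0.20 at the smallest), Grhl2 (-0.38 and -0.33), F11r (-0.22), Krt17 (-0.91), Erbb3 (-0.69), Tgfa (-0.44 and -0.08) and Wnt7a (-0.24). Among genes higher in them these were Acta2 (0.32), Lox (0.37 at the smallest), Loxl1 (0.87), Nectin3 (0.35 at the smallest), Ptn (0.40 at the smallest), Pdgfra (1.30 at the smallest) and Zfp521 (1.40). The sign was not kept for every gene of the lists. Fzd6 differed by -2.38 but by 0.01 on another probe set, and Igf1r by -0.72 but by up to 0.52 on others. A second Lama3 probe set, near background, had the opposite sign.

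The 7 gene lists on junctions, keratins, regulators, membrane and basement adhesion describe the epithelial state, and their 91 tested genes held 46 that were lower without overlap and 1 that was higher. Not overlapping sets no minimum gap, so some of the 46, such as Dsg2 and Esrp1 in MSCb1, were near background in a Cdh1-high line too. In the adherens junction, 4 of 16 genes were lower and 1 was higher, and the median difference was -0.66, against 0.04 for all genes. The 4 were Cdh1, Cdh3, Jup and Cdh13. Cdh1 chose the lines, so its place among the 4, the 46 and the lower genes overall was fixed beforehand. Cdh3, the gene of the basal P-cadherin, was at 6.23, 6.80 and 6.08 in the Cdh1-low lines, against 8.77, 9.19 and 7.76 in the Cdh1-high lines. Jup, the gene of plakoglobin, which binds both cadherins and desmosomes, was at 6.44, 5.54 and 6.41 in Cdh1-low lines, against 9.84, 8.84 and 8.06 in Cdh1-high lines. The catenins that join E-cadherin to actin showed no such gap. Ctnnb1, the gene of beta-catenin, was at 12.51, 12.80 and 12.48 in Cdh1-low lines, against 12.54, 13.35 and 12.52 in Cdh1-high lines, and Ctnna1 differed by -0.73 with overlap.

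The other cadherins did not mirror Cdh1 line by line. Cdh11, the gene of the mesenchymal OB-cadherin, was at 11.57, 10.68 and 10.49 in the Cdh1-low lines, against 9.82, 3.09 and 3.33 in the Cdh1-high lines. Cdh2, the gene of N-cadherin, was at 9.20, 8.51 and 11.21 in Cdh1-low lines, against 9.53, 4.29 and 5.23 in Cdh1-high lines. MSCP5 thus held high Cdh1, Cdh2 and Cdh11 together. The keratinocyte line NK also held all of them, at 11.60, 7.74 and 8.28, so this was not particular to MSCP5. Nectin3, an adhesion partner of other nectins, was at 8.31, 8.81 and 10.72 in Cdh1-low lines, against 8.42, 3.39 and 7.53 in Cdh1-high lines, and overlapped.

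Tight junction genes lay on the low side as a group. All 18 tested members had a difference below 0 with a median of -1.85, and 9 were lower without overlap. Without MSCb1 these were 15, when 12.5% of all genes were lower. Cldn4, a claudin of simple and differentiating epithelia, was at 4.56, 4.76 and 4.76 in Cdh1-low lines, against 10.75, 6.82 and 12.67 in Cdh1-high lines. Ocln, the gene of occludin, was at 5.05, 3.83 and 3.68 in the Cdh1-low lines, against 8.90, 5.49 and 9.53 in the Cdh1-high lines. In both genes MSCb1 held much less than MSCP5 and SN161. Cxadr, a junction protein that adenoviruses use as receptor, was at 6.59, 5.24 and 3.78 in Cdh1-low lines, against 9.03, 7.81 and 10.11 in Cdh1-high lines. F11r, the gene of the junctional adhesion molecule JAM-A, was at 5.20, 9.12 and 7.35 in Cdh1-low lines, against 10.93, 10.31 and 11.47 in Cdh1-high lines. For F11r, MSC11B thus came close to MSCb1.

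Desmosomes, the spot junctions that anchor keratins, showed the same side. Of 10 tested genes 8 were lower without overlap, with a median of -2.92. Dsc3 (named after its values were seen) was among the 8 although only MSCP5 was above background for it. It was at 3.47, 3.40 and 3.33 in Cdh1-low lines, against 11.81, 3.60 and 3.62 in Cdh1-high lines. Dsp, the gene of desmoplakin, was at 3.21, 6.99 and 3.49 in the Cdh1-low lines, against 13.17, 10.41 and 10.40 in the Cdh1-high lines. Perp, a tetraspan desmosome protein, was at 3.20, 9.77 and 3.87 in Cdh1-low lines, against 13.65, 9.97 and 11.02 in Cdh1-high lines, so MSC11B lay only just below MSCb1. Desmosomal cadherins were not shared by the Cdh1-high lines. Dsg2, the gene of desmoglein 2, was at 3.43, 3.61 and 3.52 in Cdh1-low lines, against 8.35, 3.79 and 9.80 in Cdh1-high lines, so MSCb1 was near background. Ppl, the gene of periplakin, was at 5.12, 5.90 and 6.37 in Cdh1-low lines, against 10.10, 8.27 and 8.20 in Cdh1-high lines.

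Keratins are the intermediate filaments of epithelia. All 11 tested keratins had a difference below 0, with a median of -3.62, and 6 did not overlap. Krt14, the basal keratin of epidermis, was at 4.07, 5.44 and 4.34 in Cdh1-low lines, against 14.35, 9.14 and 7.88 in Cdh1-high lines. Krt18, of simple epithelia, was at 3.90, 6.03 and 4.0 in the Cdh1-low lines, against 7.98, 10.68 and 13.14 in the Cdh1-high lines. The Cdh1-high lines therefore stood in opposite orders for a basal and a simple keratin. Krt17, a keratin of wounds and appendages, was at 3.81, 3.61 and 3.56 in Cdh1-low lines, against 12.67, 6.06 and 6.94 in Cdh1-high lines. Krt8, the partner of Krt18, was at 4.64, 5.04 and 5.40 in Cdh1-low lines, against 4.99, 11.57 and 13.07 in Cdh1-high lines. With Krt8 as low in MSCP5 as in the Cdh1-low lines, the groups overlapped for it. One other Krt14 probe set differed by -1.18 and another by -5.59.

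Regulators of the epithelial state were lower without overlap in 9 of 14 tested genes, with a median of -1.54. Grhl2, a transcription factor that maintains junction genes, was at 5.46, 5.01 and 5.54 in the Cdh1-low lines, against 8.67, 6.09 and 8.45 in the Cdh1-high lines. Esrp1, an RNA-binding protein that sets epithelial splicing, was at 3.96, 4.20 and 3.75 in Cdh1-low lines, against 9.59, 4.45 and 10.61 in Cdh1-high lines. MSCb1 thus held Cdh1 with Esrp1 at background. Ehf, an ETS factor of epithelia, was at 3.41, 3.18 and 3.20 in Cdh1-low lines, against 9.18, 8.80 and 6.95 in Cdh1-high lines and 4.20 in MSCP1. Its difference of -5.05 (SE 0.59) was the widest of the list. Klf4, a zinc finger factor of the epidermal barrier, was the 1 member on the high side, at 9.49, 9.69 and 8.51 in Cdh1-low lines, against 10.60, 6.0 and 8.42 in Cdh1-high lines, with overlap.

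Other lists hold membrane proteins of epithelia and genes that anchor basal cells to the basement membrane. Of 11 epithelial membrane genes 6 did not overlap, all lower, with a median of -2.76. Epcam, an adhesion molecule of simple epithelia and carcinomas, was at 4.43, 4.32 and 4.45 in the Cdh1-low lines, against 10.66, 7.34 and 12.19 in the Cdh1-high lines. Spint2, an inhibitor of membrane serine proteases, was at 6.08, 6.38 and 6.88 in Cdh1-low lines, against 11.09, 10.19 and 12.27 in Cdh1-high lines. Spint2 was thus well above background in MSCb1 too, which was low for Epcam. Of 11 basement adhesion genes 4 were lower without overlap, with a median of -2.43, and 7 were without MSCb1, when 12.5% of all genes were. Plec, the gene of the linker plectin, was the 1 member on the high side (0.59). Itgb4, the hemidesmosome integrin, was at 5.67, 5.56 and 5.31 in Cdh1-low lines, against 10.90, 6.75 and 8.56 in Cdh1-high lines. Lama3, a laminin chain of the epidermal basement membrane, was at 4.57, 11.52 and 4.61 in Cdh1-low lines, against 11.88, 12.13 and 10.60 in Cdh1-high lines. MSC11B thus kept Lama3 at the level of the Cdh1-high lines.

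Promoters of genes that lay low or high together in the Cdh1-low lines are shown so that the E-box letters in them can be seen. The 6 genes were chosen after their values were seen. The sequences are the 250 bases before the start of each gene in RefSeq (GRCm38.p6), read along the gene's strand. Epcam lies at chr17:87635729-87635978 (plus strand), Spint2 at chr7:29281978-29282227 (minus), Cldn4 at chr5:134946935-134947184 (minus), Lsr, a tricellular junction protein, at chr7:30973470-30973719 (minus), Krt14 at chr11:100206031-100206280 (minus) and Col3a1 at chr1:45311288-45311537 (plus). Capitals mark CACCTG or CAGGTG, which are 1 motif read on the 2 strands and which Snail and Zeb factors are known to bind.
Epcam: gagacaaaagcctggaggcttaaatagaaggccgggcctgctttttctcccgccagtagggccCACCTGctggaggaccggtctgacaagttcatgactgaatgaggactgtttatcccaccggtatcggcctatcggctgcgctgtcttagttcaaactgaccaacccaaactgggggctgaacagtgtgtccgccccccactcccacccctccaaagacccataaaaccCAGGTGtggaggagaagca
Spint2: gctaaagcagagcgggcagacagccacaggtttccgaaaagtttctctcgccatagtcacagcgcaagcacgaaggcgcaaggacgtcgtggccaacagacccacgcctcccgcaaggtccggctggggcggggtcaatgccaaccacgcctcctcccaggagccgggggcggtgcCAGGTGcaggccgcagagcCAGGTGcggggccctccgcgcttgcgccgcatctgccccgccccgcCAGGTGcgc
Cldn4: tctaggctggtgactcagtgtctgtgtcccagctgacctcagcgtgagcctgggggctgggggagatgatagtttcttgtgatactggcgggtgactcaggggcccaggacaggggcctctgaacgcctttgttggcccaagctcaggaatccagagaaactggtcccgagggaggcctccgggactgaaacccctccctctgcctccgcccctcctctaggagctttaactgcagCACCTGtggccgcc
Lsr: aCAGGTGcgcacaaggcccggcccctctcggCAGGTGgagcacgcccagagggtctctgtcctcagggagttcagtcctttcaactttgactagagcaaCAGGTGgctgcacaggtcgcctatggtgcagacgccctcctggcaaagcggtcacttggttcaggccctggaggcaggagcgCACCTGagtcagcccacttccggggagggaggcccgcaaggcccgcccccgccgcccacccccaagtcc
Krt14: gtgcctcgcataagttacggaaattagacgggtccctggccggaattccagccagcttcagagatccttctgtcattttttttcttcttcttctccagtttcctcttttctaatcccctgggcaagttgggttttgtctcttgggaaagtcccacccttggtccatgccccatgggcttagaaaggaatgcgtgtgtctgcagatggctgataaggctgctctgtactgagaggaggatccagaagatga
Col3a1: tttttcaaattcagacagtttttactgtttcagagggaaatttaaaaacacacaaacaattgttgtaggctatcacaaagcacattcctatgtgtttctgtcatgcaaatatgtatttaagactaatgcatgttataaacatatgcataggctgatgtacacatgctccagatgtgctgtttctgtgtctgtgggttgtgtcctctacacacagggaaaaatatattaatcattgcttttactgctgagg
The motif stands at 2 places in the Epcam window, 3 in Spint2, 1 in Cldn4 and 4 in Lsr, and at 0 in Krt14 and Col3a1. It stands in 17.2% of all 32851 promoter windows of this length in the table. The 6 genes were picked by hand, so this share is no test of them. Their matches describe letters, and binding was not measured. Lsr itself was at 6.25, 6.31 and 5.98 in Cdh1-low lines, against 8.64, 6.93 and 10.22 in Cdh1-high lines.

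EMT transcription factors did not separate the Cdh1-low from the Cdh1-high lines as the epithelial genes did. Of 13 tested, 12 had a difference above 0 with a median of 0.73, but only Prrx1 and Twist2 were higher without overlap and Snai3 was lower. Prrx1, a homeobox factor of mesenchyme, was at 10.94, 11.5 and 9.95 in Cdh1-low lines, against 8.44, 8.67 and 5.86 in Cdh1-high lines. Twist2, a basic helix-loop-helix factor of dermis, was at 11.52, 10.48 and 9.36 in the Cdh1-low lines, against 8.59, 8.47 and 7.17 in the Cdh1-high lines. Zeb1, Snai2, Snai1 and Twist1 overlapped. Zeb1 was at 10, 9.52 and 9.63 in Cdh1-low lines, against 8.66, 9.81 and 7.06 in Cdh1-high lines and 5.06 in MSCP1. Snai2 was at 10.54, 11.55 and 11.23 in Cdh1-low lines, against 12.01, 11.45 and 8.69 in Cdh1-high lines. MSCb1 therefore held Cdh1 at 10.02 beside Zeb1 at 9.81, and MSCP5 held Cdh1 beside the highest Snai2 of the 6 lines. Such Snai2 was not particular to MSCP5, since the keratinocyte lines C5N and NK were at 12.26 and 11.91. Snai1 was at 8.68, 6.39 and 8.80 in Cdh1-low lines, against 7.31, 6.38 and 5.82 in Cdh1-high lines, and Twist1 at 8.87, 8.46 and 8.71 in Cdh1-low lines, against 5.70, 9.54 and 7.62 in Cdh1-high lines. Without MSC11B or without MSCP5, 5 of the 13 were higher without overlap, when 13.8% and 16.4% of all genes were.

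**Figure D2:**
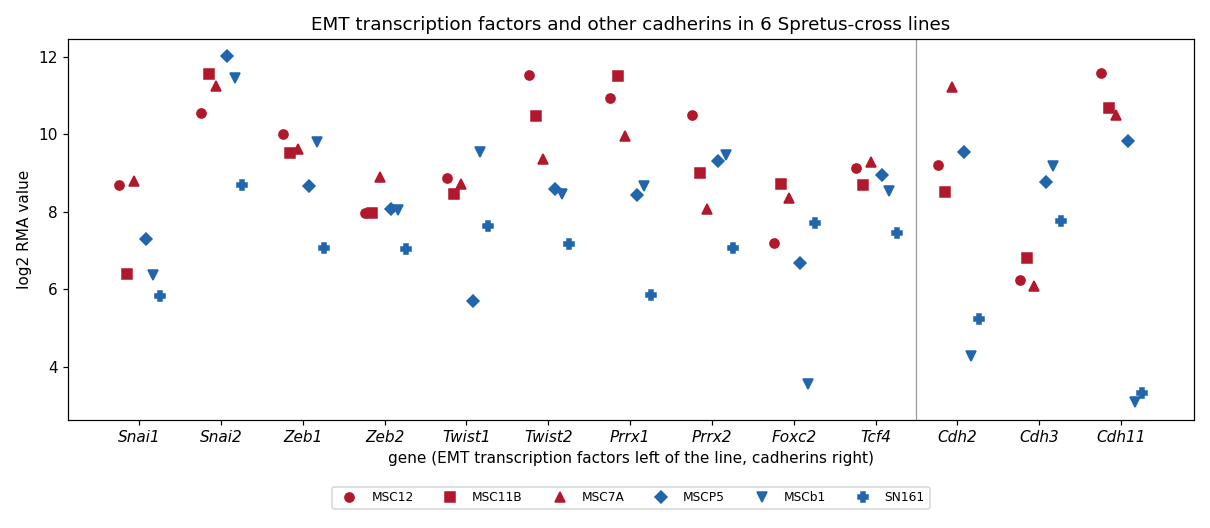
Log2 RMA value (vertical axis) of 10 EMT transcription factors and 3 other cadherins in the 3 Cdh1-low lines (red, left in each column) and the 3 Cdh1-high lines (blue, right). Each point is 1 line. Prrx1 and Twist2 do not overlap, and for Zeb1, Snai2 and Twist1 at least 1 Cdh1-high line reaches the Cdh1-low lines.

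Of 16 tested mesenchymal structural genes 13 had a difference above 0, with a median of 0.82, and 1 was higher without overlap, a share no larger than the 9.18% of all genes. Without MSCb1 or without MSCP5 this count was 4, when 16% and 16.4% of all genes were higher. The 1 gene was S100a4, a calcium-binding protein of motile cells, at 14.00, 13.64 and 14.03 in the Cdh1-low lines, against 13.06, 10.88 and 10.79 in the Cdh1-high lines. Acta2, the gene of smooth muscle actin, was at 13.45, 13.36 and 14.42 in Cdh1-low lines, against 14.27, 14.21 and 5.74 in Cdh1-high lines. Vim, the gene of vimentin (named after its values were seen), lay between 13.90 and 14.41 in Cdh1-low lines, against 13.74, 14.14 and 11.45 in Cdh1-high lines. For Acta2 and Vim, SN161 alone was low, while MSCP5 and MSCb1 lay with the Cdh1-low lines. Postn, the gene of the matrix protein periostin, was at 8.93, 8.98 and 12.44 in Cdh1-low lines, against 10.54, 6.45 and 4.55 in Cdh1-high lines. Thy1, a fibroblast surface protein, was at 9.73, 3.88 and 4.14 in Cdh1-low lines, against 4.24, 3.96 and 3.73 in Cdh1-high lines, so it marked MSC12 alone.

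Collagens lay on the high side, with Col3a1 the widest difference of all genes higher without overlap. Of 15 tested genes 5 were higher and 2 were lower without overlap, with a median of 2.56, and 9 were higher without MSCP5, when 16.4% of all genes were. Col3a1, of fibrillar collagen III, was at 12.69, 12.97 and 13.11 in the Cdh1-low lines, against 12.25, 4.41 and 4.61 in the Cdh1-high lines. Col5a2 was at 12.51, 12.84 and 13.59 in Cdh1-low lines, against 11.55, 5.68 and 6.14 in Cdh1-high lines. For both, MSCP5 came close to the Cdh1-low lines although it is Cdh1-high, and the other 2 Cdh1-high lines were near background. Col1a2 was at 13.21, 9.63 and 14.13 in Cdh1-low lines, against 13.47, 5.51 and 5.33 in Cdh1-high lines, and Col6a2 at 9.89, 12.81 and 10.30 in Cdh1-low lines, against 9.22, 7.25 and 6.20 in Cdh1-high lines. The 2 lower ones were Col4a2 (-1.38, SE 0.47) and Col18a1 (-1.60, SE 0.64), both of basement membranes and named after their values were seen.

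Of 18 matrix enzymes and their inhibitors 3 were higher and 0 lower without overlap, with a median of 0.21. Mmp2, the gelatinase of stromal cells, was at 10.06, 7.69 and 11.52 in Cdh1-low lines, against 6.84, 5.08 and 5.0 in Cdh1-high lines. Loxl1, a collagen cross-linking enzyme, was at 10.73, 9.82 and 10.98 in Cdh1-low lines, against 9.72, 7.55 and 4.95 in Cdh1-high lines. The collagenase gene Mmp13 ran the other way, with overlap, at 6.48, 4.31 and 3.69 in the Cdh1-low lines, against 4.97, 12.05 and 9.17 in the Cdh1-high lines. Lox, another cross-linking enzyme, was at 10.76, 9.39 and 10.35 in Cdh1-low lines, against 11.09, 5.45 and 3.93 in Cdh1-high lines.

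Signalling genes showed smaller groups. Of 19 growth factor receptors and ligands 7 were lower and 1 was higher without overlap, with a median of -0.60. Erbb3, a receptor partner of the EGF receptor family, was at 4.42, 5.22 and 5.63 in Cdh1-low lines, against 8.78, 5.71 and 9.98 in Cdh1-high lines. Tgfa, an EGF receptor ligand, was at 5.98, 3.81 and 4.91 in Cdh1-low lines, against 7.63, 6.28 and 8.25 in Cdh1-high lines. The receptors of platelet-derived growth factor overlapped. Pdgfrb was at 9.78, 11.37 and 11.52 in the Cdh1-low lines, against 11.48, 10.15 and 3.45 in the Cdh1-high lines. Pdgfra was at 11.47, 11.14 and 7.07 in Cdh1-low lines, against 5.07, 7.26 and 7.39 in Cdh1-high lines. Of 21 TGF-beta and activin genes 3 were lower and 0 higher, with a median of -0.26. Among them was the receptor gene Tgfbr2, at 10.49, 10.84 and 10.25 in Cdh1-low lines, against 10.87, 12.35 and 11.93 in Cdh1-high lines.

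Of 21 Wnt and Notch genes 5 were lower and 4 higher without overlap, with a median of -0.65. Wnt7a, an epidermal Wnt ligand, was at 4.88, 5.06 and 4.67 in Cdh1-low lines, against 7.43, 5.06 and 10.58 in Cdh1-high lines, and so was at background in MSCb1. Dll1, a Notch ligand, was at 4.66, 5.13 and 4.73 in Cdh1-low lines, against 9.02, 6.87 and 7.07 in Cdh1-high lines. Of 12 insulin-like growth factor genes 1 was lower and 0 higher, with a median of -0.04. This was Igfbp3, whose product binds insulin-like growth factors outside the cell, at 7.47, 7.80 and 4.89 in the Cdh1-low lines, against 12.85, 9.45 and 8.02 in the Cdh1-high lines. Of 8 splicing regulators 2 were higher and 1 lower, with a median of 0.82. The lower one was Rbm47, an RNA-binding protein of epithelia, at 5.5, 4.38 and 4.82 in Cdh1-low lines, against 6.20, 6.99 and 7.65 in Cdh1-high lines.

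Cell cycle genes lay on the high side in small steps. All 15 tested had a difference above 0 with a median of 0.65, and 7 did not overlap, but only 2 did not overlap once MSCP1 was placed with the Cdh1-high lines. Cdc20, which activates the anaphase-promoting complex, was at 11.74, 12.10 and 11.76 in Cdh1-low lines, against 11.42, 9.21 and 10.54 in Cdh1-high lines and 11.63 in MSCP1. The low values of MSCb1 recurred across the list, whose mean was 9.37 in MSCb1 and 10.49 to 10.70 in the Cdh1-low lines. Of 18 squamous differentiation genes 6 were lower, with a median of -1.97. Dmkn, the gene of dermokine, was at 3.41, 3.54 and 3.59 in the Cdh1-low lines, against 12.45, 4.99 and 4.86 in the Cdh1-high lines. S100a9, a calgranulin of stressed epidermis, was at 3.86, 3.52 and 3.69 in Cdh1-low lines, against 12.71, 4.11 and 4.06 in Cdh1-high lines. Both were high in MSCP5 alone among the 6. Of 15 MHC and interferon genes 0 were higher and 0 lower, with a median of -0.5, and their mean was highest in MSCb1 at 8.67 and lowest in MSCP5 at 6.43.

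**Figure D3:**
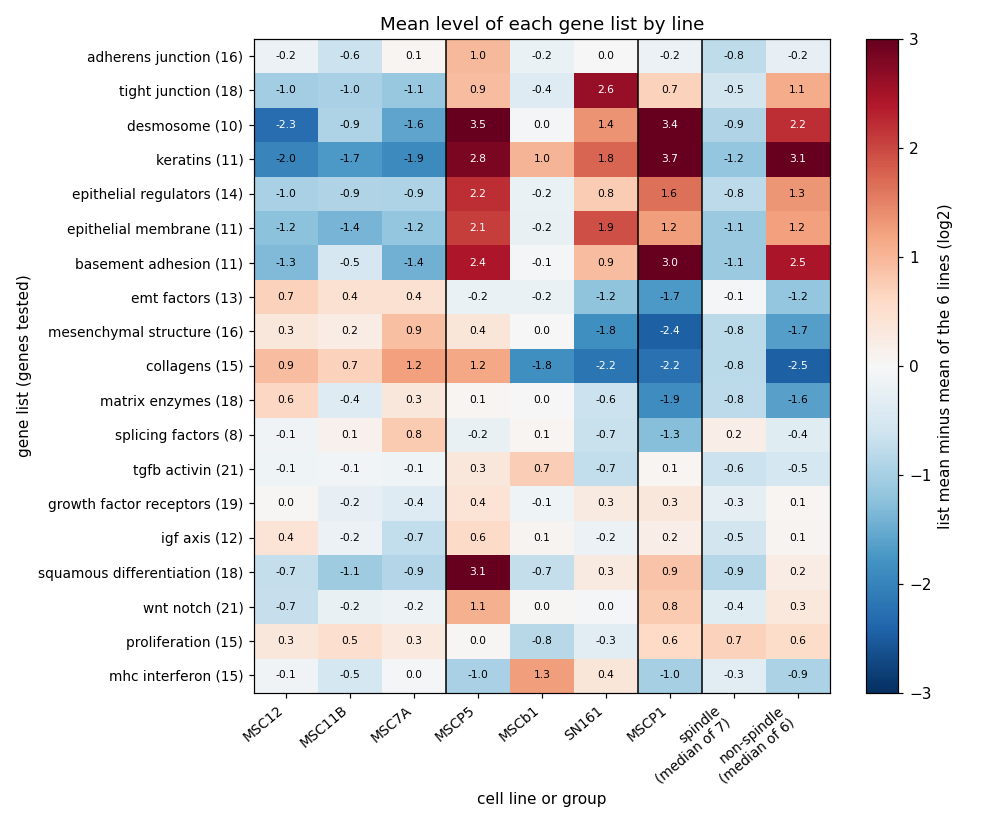
Mean log2 value of the tested genes of each list in each of the 7 Spretus-cross lines and, as medians over lines, in the 7 spindle and 6 non-spindle lines, minus the mean of the 6 lines compared (colour and number, log2 units). The epithelial lists are below 0 in all 3 Cdh1-low lines, except adherens junction in MSC7A, and among the 6 lines are highest in MSCP5 or SN161, and mesenchymal structure and collagens are as high in MSCP5 as in Cdh1-low lines.

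The 3 Cdh1-high lines were unlike each other. MSCP5 had 141 genes at least 3 log2 units above and 24 below both other Cdh1-high lines. For SN161 these counts were 83 and 62, and for MSCb1 75 and 71. MSCP5 had the highest mean of the keratin list (9.74), the squamous list (9.0) and the collagen list (10.21) among the Cdh1-high lines, so basal epidermal and matrix genes stood side by side in it. In SN161 the tight junction list was highest (9.25) and the mesenchymal structure list lowest (8.84). MSCb1 had the lowest desmosome (6.87) and epithelial regulator (5.94) means of the 3. In bulk RNA from a culture, fewer cells of a kind and less RNA per cell cannot be told apart, so whether a line such as MSCP5 is a mixture was not tested.

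The Cdh1-low lines differed less, with 20 to 39 genes at least 3 log2 units above or below both others. MSC12 lacked Aldh1a1, a retinoic acid enzyme, which was at 3.76 in it against 10.17 in MSC11B and 12.62 in MSC7A. Aldh1a1 was also at 5.37 in SN161, and its median over spindle lines was 3.99, with values up to 11.81. MSC12 alone among the Cdh1-low lines held Ccl9, a chemokine, at 11.38, and 4933412E12Rik at 11.81. MSC11B held Lama3 (11.52), Baiap2l1, an actin-membrane adaptor (12.13), and the Y-linked Eif2s3y (9.59), each near background in the other 2 Cdh1-low lines. Outside these, Baiap2l1 was also at 12.62 in MSCb1, 12.11 in SN161 and 12.12 to 12.94 in spindle lines. Lama3 was at 10.60 to 12.13 in the Cdh1-high lines. Eif2s3y was also at 8.25 in MSCP5 and at 3.09 to 3.24 in the other 4 lines. MSC7A lacked Ptn, the gene of the growth factor pleiotrophin, at 3.66, as MSCb1 (3.88) and SN161 (3.49) did. It alone among the Cdh1-low lines held Fgf5 (9.05) and Sorbs2 (10.63), which SN161 held at 8.10 and 9.49.

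Markers of other cell types were read in the 6 lines. Macrophage (Ptprc, Adgre1, Tyrobp, Fcer1g), endothelial (Pecam1, Cdh5, Tie1, Vwf, Emcn, Erg), melanocyte (Tyr, Tyrp1, Dct, Mlana) and muscle markers (Myod1, Myog, Myf5, Myh3, Tnnt1) were at or below the array median in all 6. Of 10 fibroblast markers, Lum, Fap, Dpt and Pi16 were so in all 6, and the other 6 had a median difference of 2.92. The mean of those 6 ran from 8.58 to 11.03 in Cdh1-low lines, against 4.71 to 8.40 in Cdh1-high lines, and their part in the mesenchymal differences was not tested. Other markers of these lists were not. Csf1r, Cd14, Mitf, Pmel, Sox10 and Des were above the array median in all 6 lines, Cd68 and Lyz2 in 5, Actc1 in 4, Kdr in 2 and Tek in 1. Several lay not far above it, with Csf1r at 6.09 to 6.69, Pmel at 5.07 to 6.02, Sox10 at 5.91 to 6.27 and Des at 5.84 to 6.21 over the 6 lines. Lyz2 was at 5.11 to 8.09 in Cdh1-low lines, against 4.72 to 5.85 in Cdh1-high lines. Cd14 was at 5.38 to 8.77 in Cdh1-low lines, against 7.06 to 11.34 in Cdh1-high lines, and Cd68 was at 4.66 to 5.73 in Cdh1-low lines, against 5.24 to 10 in Cdh1-high lines. Their part in the differences was not tested.

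All 12641 genes were then tested in lines that the Cdh1 rule did not use, by comparing the 7 spindle with the 6 non-spindle lines of no stated cross. limma called 1575 of them (12.5%), of which 731 fell (5.78%) and 844 rose (6.68%) in spindle lines. The 2 comparisons share no line, but some of their arrays lay close, so they are not fully independent. MSC11B lay 0.440 from MSN2 and 0.465 from D3DP, and SN161 lay 0.541 from E4. Of the 198 genes lower without overlap and by 2 log2 units or more in Cdh1-low lines, 110 (55.6%) also fell in spindle lines and 0 rose. These were 15% of the 731. Of the 73 genes higher by that much, 25 (34.2%) rose in spindle lines and 0 fell, and they were 2.96% of the 844. With no minimum difference, 242 of 944 genes fell (25.6%) and 8 rose, and 152 of 1161 rose (13.1%) and 3 fell. The count of 1575 was 721 without B9ras, 758 without PDV, 891 without PDVC57, 924 without D3DP and 303 with the arrays of lines that share a name stem averaged. PDV and B9ras, whose arrays lay 0.333 apart, share no name stem, nor do A5 and H11 (0.287). The shares of genes found in both comparisons were not counted with name stems averaged.

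Many epithelial genes fell in spindle lines. Of their 91 tested genes 49 fell and 1 rose in spindle lines, and 34 of the 49 were among the 46 lower without overlap in Cdh1-low lines. Cdh1 itself averaged 3.43 ± 0.30 over the 7 spindle lines, against 10.93 ± 0.99 over the 6 non-spindle ones (SD) (limma adjusted p = 6.06e-08). Esrp1 averaged 3.78 ± 0.28 in the spindle group, against 10.24 ± 0.54 in the other (SD), a fall of 6.46 on the log2 scale (SE 0.23, limma adjusted p = 1.45e-09). Epcam fell by 7.29 (SE 0.48, limma adjusted p = 1.23e-06) and Krt14 by 7.54 (SE 0.97, limma adjusted p = 0.000558) on the log2 scale. Ripk4 and Urah, from the head of the Spretus-cross list, fell by 5.79 and 4.29 (limma adjusted p = 6.06e-08 and 4.46e-06). Igfbp3 and Ppbp were among the genes that fell most, by 7.37 and 6.85 (limma adjusted p = 1.53e-05 and 0.000101).

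Some epithelial genes that were near background in Cdh1-low lines did not pass the test in spindle lines. Krt18 was at 6.0 at the lowest, 11.27 at the median and 12.01 at the highest in spindle lines, against 11.28, 12.82 and 13.35 in non-spindle lines, and its difference of -2.80 (SE 0.99) did not pass (limma adjusted p = 0.0781). Krt8 ran from 5.02 to 11.46 in spindle lines, against 6.59 to 13.57 in non-spindle lines (limma adjusted p = 0.132). Ehf, the widest regulator in the Spretus-cross lines, differed by -1.43 (SE 0.51, limma adjusted p = 0.0791), with a median of 3.42 in spindle lines, against 4.44 in non-spindle lines. The non-spindle median was itself below the array medians, so Ehf had little room to fall in this comparison. Dsp fell by 4.67 (limma adjusted p = 0.0152) and Perp by 3.27 (limma adjusted p = 0.0425), yet the median of Perp over spindle lines was 9.86.

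Among EMT factors 5 of 13 rose in spindle lines and 1 fell. Zeb1 averaged 9.44 ± 0.67 over the 7 spindle lines, against 5.99 ± 0.99 over the 6 non-spindle ones (SD), a rise of 3.45 (SE 0.43, limma adjusted p = 0.000445). Prrx1 (3.81), Tcf4 (1.70), Snai1 (1.67) and Twist1 (1.54) rose too, with limma adjusted p of 0.0146, 0.024, 0.045 and 0.0242. Twist2, which separated the Spretus-cross lines, differed by 0.48 (SE 0.43, limma adjusted p = 0.479). In collagens 5 of 15 rose, led by Col5a2 (6.17, SE 0.54, limma adjusted p = 2.06e-05) and Col3a1 (4.68, SE 1.27, limma adjusted p = 0.0321). Pdgfrb rose by 5.92, Pcolce, an enhancer of procollagen processing, by 5.13, Ogn, a small leucine-rich proteoglycan, by 4.78 and Efemp1, a fibulin, by 4.72 (limma adjusted p = 3.4e-05, 0.0217, 0.0222 and 0.0452). Cdh11 differed by 0.29 (SE 0.95, limma adjusted p = 0.872), against 5.5 in the Spretus-cross lines. Of the genes given here with values in spindle lines, 23 were called between spindle and non-spindle lines, and 13 of these still were when arrays of lines that share a name stem (such as B9, B9ras and B9rassmad) were averaged. The other 10 were Dsp, Perp, Prrx1, Tcf4, Snai1, Twist1, Col3a1, Pcolce, Ogn and Efemp1. Without PDV, whose array is close to that of MSCP1, the limma adjusted p was 0.0932 for Perp, 0.0608 for Tcf4, 0.0854 for Snai1, 0.0572 for Twist1, 0.0753 for Col3a1, 0.0529 for Pcolce, 0.0535 for Ogn and 0.0669 for Efemp1. Ehf passed without B9rassmad (0.0416) or without E4 (0.0451).

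**Figure D4:**
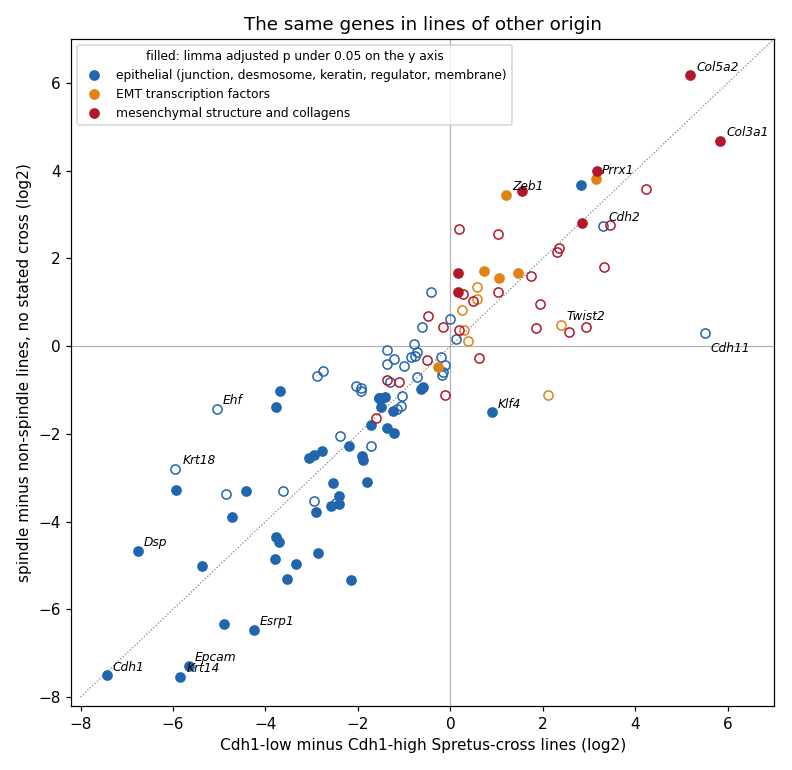
Difference between Cdh1-low and Cdh1-high Spretus-cross lines (horizontal axis, log2) and between spindle and non-spindle lines with no stated cross (vertical axis, log2) for the tested genes of the epithelial, EMT factor, mesenchymal structure and collagen lists. Each point is 1 gene, filled points were called by limma in the spindle comparison, and the dotted line marks equal differences. Cdh11 lies far right near 0 on the vertical axis, and Zeb1 lies above the line.

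Whether the differences themselves differ between the 2 settings was read from an interaction fit. One side of it is the split that the Cdh1 values chose, so its p-values and intervals are given as a description. Cdh11 and Ehf were named for wide differences in that split, which can also widen their interaction. limma called 0 of 12641 genes (0.0%), while 1254 had an unadjusted p under 0.05, and the lowest adjusted p was 0.242. The interval of a difference is wide with these numbers. For Zeb1 it was -2.25 (95% interval -3.97 to -0.53, limma adjusted p = 0.436), for Cdh11 5.22 (1.06 to 9.37, limma adjusted p = 0.437) and for Ehf -3.61 (-5.49 to -1.74, limma adjusted p = 0.425). The count was 12 without MSC11B, 11 without SN161, 9 without MSCP5 and 1 without MSCb1 or E4.

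The Cdh1-low Spretus-cross lines were last set against the spindle lines. limma called 2 of 12641 genes (0.0158%), both higher in Cdh1-low lines, and 810 had an unadjusted p under 0.05. Sfrp2, a secreted Wnt modulator of dermis, averaged 5.58 ± 0.72 (SD, n = 3) in Cdh1-low lines and 3.42 ± 0.10 (n = 7) in spindle lines (limma adjusted p = 0.033). Arhgap44 averaged 6.32 ± 0.24 (n = 3) in Cdh1-low lines and 4.48 ± 0.32 (n = 7) in spindle lines (limma adjusted p = 0.033). Sfrp2 was thus close to the array median in Cdh1-low lines and below it in spindle lines. No call passed without D3, D3DP, A5, H11, MSC12 or MSC7A or with name stems averaged. Without MSN2 1 passed, and Sfrp2 did not (limma adjusted p = 0.127). Without CarC the 1 call was Cdh11, while Sfrp2 and Arhgap44 did not pass (limma adjusted p = 0.0542 for each). Without CarB 8 passed, and 25 did without MSC11B, the Cdh1-low line closest to spindle arrays.

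Several matrix and adhesion genes lay apart without passing. Cdh11 averaged 10.91 ± 0.57 (n = 3) in Cdh1-low lines and 4.29 ± 1.87 (n = 7) in spindle lines, a difference of 6.62 (95% interval 4.36 to 8.88, limma adjusted p = 0.137, or 0.00479 without CarC). Lox differed by 4.76 (3.08 to 6.44) and Postn by 4.94 (3.21 to 6.67), each with limma adjusted p = 0.137 (0.0396 for Lox without CarB). Krt18 differed by -5.22 (-8.35 to -2.08, limma adjusted p = 0.432), with a spindle median of 11.27. For Epcam (-0.28 to 0.47), Esrp1 (-0.24 to 0.61) and Grhl2 (-0.56 to 0.39), the 95% intervals of the difference from spindle lines lay within 1 log2 unit of 0, with the values of both groups near or below the array median.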

How the data were processed

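RNA of 26 mouse skin cell lines was measured on 1 Affymetrix M430 array per line. The authors deposited log2 values made with RMA, per the submitters' processing notes; the labels name neither the program nor the probe set definitions. RMA equalises the arrays' distributions, so a shift of most genes in 1 line would not be seen, and low values are compressed, so folds of genes near background are understated. Signal counts per array are not part of such values, and the number of lines limits the precision.

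Of 45037 probe sets, 34945 name 1 gene in the platform annotation, 932 several and 9160 none, and 34741 of the first kind matched a current gene ID. The probe set with the highest mean stood for each of 18193 genes, and 12641 above the array median on at least 2 of 26 arrays were tested. limma 3.58.1 (R 4.3.3) with Benjamini-Hochberg adjustment over all tested genes compared spindle with non-spindle lines, Cdh1-low with spindle lines, and the 2 differences with each other, with calls at an adjusted p under 0.05. Tables were made with Python 3.11.15 and pandas 2.3.3. Each fit was tested on simulated data. Differences between Cdh1-low and Cdh1-high lines are descriptions, since Cdh1 chose the lines, and so is the comparison of the 2 differences, which uses them. p-values measure only the spread between lines, of which some share a name stem or have arrays very close to each other.

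The lines and the gene lists were chosen with earlier results of these data known, so patterns already seen in them give no independent support. The text names the 10 genes lower and the 10 higher by most without overlap, up to 4 members per list by size of difference, members of the adherens junction, EMT factor and epithelial regulator lists, 3 genes particular to each Cdh1-low line, and, in the other comparisons, 6 called genes each way by size. Alternatives were other filters, another probe set per gene, an intensity trend, MSCP1 added, name stems averaged, 1 shared fit and each line left out.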

Additional observations from a re-analysis of the deposited data

Results flagged for a closer look

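In the comparison groups, a line was flagged where its gap to the next line took more of the group's range than Dixon's 95% limit allows, which chance does in about 1 of 20 groups. Among non-spindle lines, B9rassmad was highest for Cdh11 at 7.82 (next 3.42) and lowest for Epcam at 9.04 (next 11.68). E4, the line nearest to SN161, was highest for Zeb1 at 7.88 (next 6.01) and for Ogn at 6.65 (next 4.50). PDV was lowest for Krt18 at 11.28 (next 12.65), and B9 highest for Postn at 5.84 (next 4.69). Among spindle lines, CarC was lowest for Perp at 3.96 (next 8.92) and highest for Ppbp at 6.60 (next 5.40). CarB was highest for Twist1 at 9.27 (next 8.71), and MSN2 for Arhgap44 at 5.16 (next 4.57). Groups of 3 lines were not examined in this way. The number of groups examined is not given here, so the number of flags cannot be set against 1 of 20. The flagged values of Postn in B9 and Arhgap44 in MSN2 were near the array median.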

How the results depend on the processing

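Among the counts and the 54 genes followed, no called value changed sign under the alternatives run. The count of 3 genes called between Cdh1-low and Cdh1-high lines was 7 with the filter on 3 arrays, 6 with the probe set of largest variance, 15 with MSCP1 added, 67 in 1 fit with the spindle and non-spindle lines, and 0 to 78 with 1 line left out. Genes without overlap numbered 688 lower and 876 higher with MSCP1 added, and 1318 to 1776 lower and 1732 to 2077 higher with 1 line left out, settings chosen after seeing the data. Leaving out a line makes overlap rarer by construction. The 1575 genes called between spindle and non-spindle lines were 303 with name stems averaged, which leaves fewer samples, and 721 to 2124 with 1 line left out. The 2 genes called between Cdh1-low and spindle lines were 4 with the probe set of largest variance, 0 with name stems averaged and 0 to 25 with 1 line left out. The 0 genes called for the difference of differences were 0 to 12 with 1 line left out and 0 under the other alternatives. The cause of these changes was not tested except where the construction gives it. For 54 genes followed singly, 922 values of the spindle comparison kept their side of the threshold, 91 no longer passed and 7 newly passed. Between Cdh1-low and spindle lines 782 kept it, 17 no longer passed and 3 newly passed, and between Cdh1-low and Cdh1-high lines 696 differences moved by less than the spread and 5 by more. Adhesion and keratin differences of MSC11B and MSCb1 rest on 1 array each. No paired analysis was possible because the replicate numbers only name lines in accession order and pair none.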
